A study of Mus musculus with 7 samples.

Results

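SoxC peaks, defined here as the H3K27ac peaks that lay closest to the genes Sox4, Sox11 and Sox12, numbered 79 of the 66841 merged peaks counted in mouse embryonic stem (ES) cells before and after induction of the neuronal transcription factor NeuroD1. A peak was given to a SoxC gene when the nearest protein-coding transcription start site (TSS) to its centre was that of the gene, whatever the distance (mm10, GENCODE M21). Sox4 had 42 such peaks, Sox11 had 30 and Sox12 had 7. Membership itself used position only. The 3 genes, however, were chosen by measured values of these data, the H3K27ac gain at 12 h and 48 h vs 0 h of a distant peak beside Sox11, so fold changes and calls at SoxC peaks are given as a description and are not evidence that these genes stand apart.

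Acetylation of lysine 27 of histone H3 (H3K27ac) marks active promoters and enhancers. SoxC proteins are transcription factors that bind DNA through an HMG box, and Sox4 and Sox11 are known for switching on neuronal genes, among them Tubb3, as progenitors leave the cell cycle and become neurons. Both genes lie in wide gene-poor regions, where distant enhancers are common, whereas Sox12 sits between close neighbours. NeuroD1 is a basic helix-loop-helix factor that binds E-boxes, short sites with the letters CANNTG.

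The cells were of the A2Lox ES line carrying a NeuroD1 transgene under a doxycycline-inducible promoter, grown feeder-free at the time of the experiment. Uninduced cells without doxycycline gave the 0 h group, and cells held in 500 ng/ml doxycycline for 12 h or 48 h gave the other groups, with 2 H3K27ac libraries (R1 and R2) per time point and the same line and transgene in all 6. Nothing in the labels says that R1 and R2 came from separate cultures, so every p-value below measures the spread between these libraries, which may be technical. Reads in peaks ranged from 6283103 to 8112895 per library, and values are given as scaled reads, that is, reads multiplied to bring every library to the mean total.

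Marker genes, taken as the strongest peak within 2 kb of a TSS, gave all 7 ES genes a peak, with a summed level of 15963 to 16169 scaled reads at 0 h, 17569 to 17617 at 12 h and 10615 to 13986 at 48 h. Nanog and Esrrb passed the test as lower at 48 h vs 0 h, and the other ES genes were not called in this contrast. Of 6 fibroblast feeder genes, Col1a2, Col3a1, Thy1 and Postn had no peak, and the list summed to 49.7 to 67.7 scaled reads at 0 h and 12 h and to 154 and 66.2 at 48 h, of which Twist1, called gained at 48 h vs 0 h, made up most; their part in the results was not tested. Of 5 neuronal genes, Dcx had no such peak, and the list summed to 429 and 468 scaled reads at 0 h, then 369 and 378 (12 h), then 708 and 519 (48 h), with Tubb3 and Rbfox3 passing the test at 48 h vs 0 h. Rbfox3 had 77.7 (R1) and 21.5 (R2) scaled reads at 48 h. Stmn2 and Map2 were not called at these peaks. Stmn2 had 327 and 286 scaled reads at 0 h and 304 and 273 at 48 h, and Map2 had 16.4 and 17.0, then 24.4 and 10.3. The 48 h libraries stood apart from each other by base composition: R1 exceeded R2 by a median of 0.35 (log2) in peaks of over 60% GC and fell short of it by 0.43 in peaks under 45% GC. In the same way the 12 h mean was lower than the 0 h mean by a median of 0.40 in GC-rich peaks and higher by 0.43 in GC-poor ones, and the part of this trend in the results below is shown by a fit with a GC correction wherever it ended a call.

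The peaks that changed most were far from their genes, so their sequences are shown first, each as the 250 bases around the peak centre on the plus strand of the reference genome of strain C57BL/6J (GRCm38.p6, the build of the peaks), with every E-box in capitals. These had, among SoxC peaks averaging 20 reads or more, the largest log2 fold change at 48 h vs 0 h. The Sox11 peaks at chr12:27645957-27646646 and chr12:27646948-27647580 were intergenic, 303.7 and 304.7 kb upstream of the TSS and 301 bp apart. The third Sox11 peak, chr12:27060580-27061600, lay 281.5 kb downstream in an intron of the non-coding gene Gm9866. The Sox4 peak chr13:29371273-29372087 lay 418.0 kb upstream in an intron of the neighbouring gene Cdkal1, and chr13:28680912-28681535 lay 272.5 kb downstream in an intron of the non-coding gene 2610307P16Rik.
Sox11, 303.7 kb upstream, chr12:27646177-27646426: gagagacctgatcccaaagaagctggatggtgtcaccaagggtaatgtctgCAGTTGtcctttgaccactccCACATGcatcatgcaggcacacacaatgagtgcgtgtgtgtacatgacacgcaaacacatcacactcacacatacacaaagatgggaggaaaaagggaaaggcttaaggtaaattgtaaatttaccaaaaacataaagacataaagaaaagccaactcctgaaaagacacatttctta
Sox11, 304.7 kb upstream, chr12:27647140-27647389: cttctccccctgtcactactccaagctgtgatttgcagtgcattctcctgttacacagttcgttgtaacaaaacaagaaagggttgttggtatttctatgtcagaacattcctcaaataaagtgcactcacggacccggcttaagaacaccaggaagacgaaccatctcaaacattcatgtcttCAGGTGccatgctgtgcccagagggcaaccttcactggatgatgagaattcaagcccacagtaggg
Sox11, 281.5 kb downstream, chr12:27060966-27061215: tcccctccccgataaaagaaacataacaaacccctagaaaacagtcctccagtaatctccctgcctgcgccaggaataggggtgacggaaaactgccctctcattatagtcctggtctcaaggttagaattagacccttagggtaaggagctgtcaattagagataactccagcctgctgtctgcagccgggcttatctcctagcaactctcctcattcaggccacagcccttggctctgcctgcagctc
Sox4, 418.0 kb upstream, chr13:29371556-29371805: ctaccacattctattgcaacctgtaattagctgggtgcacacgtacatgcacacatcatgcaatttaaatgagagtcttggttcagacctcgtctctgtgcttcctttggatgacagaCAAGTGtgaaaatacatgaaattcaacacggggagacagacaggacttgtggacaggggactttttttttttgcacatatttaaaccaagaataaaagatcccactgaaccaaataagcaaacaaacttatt
Sox4, 272.5 kb downstream, chr13:28681099-28681348: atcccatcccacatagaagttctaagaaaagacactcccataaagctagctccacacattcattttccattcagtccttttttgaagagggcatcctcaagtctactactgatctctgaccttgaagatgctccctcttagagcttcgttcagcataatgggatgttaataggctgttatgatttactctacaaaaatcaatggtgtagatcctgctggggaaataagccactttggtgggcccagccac

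The first window held 2 E-boxes, the second and the fourth held 1 each, and the third and the last held none. Among the same 250-base windows of 66783 peaks, 69.41% held an E-box, so its presence in 3 of 5 windows is a description only. GC content of the 5 windows ran from 39.6% to 51.6%.

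The promoters of the 3 genes are shown because the H3K27ac peaks at their starts are compared next. The Sox11 and Sox12 windows lay within these peaks, whereas that of Sox4 lay mostly beyond the broad gene peak and over a separate weak peak (chr13:28953794-28954152), which stayed between 7.51 and 25.5 scaled reads and was not called. These are the 250 bases upstream of the RefSeq start (GRCm38.p6), written 5′ to 3′ on the minus strand on which all 3 genes lie, with E-boxes in capitals; neither HMG-box motif searched, ACAAAG or AACAAT, was found on either strand of the 3 windows.
Sox11, chr12:27342719-27342968: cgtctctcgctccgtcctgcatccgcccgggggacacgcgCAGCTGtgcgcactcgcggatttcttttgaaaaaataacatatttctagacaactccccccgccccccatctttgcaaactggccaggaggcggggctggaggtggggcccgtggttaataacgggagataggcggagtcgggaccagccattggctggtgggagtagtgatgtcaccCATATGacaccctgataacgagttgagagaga
Sox4, chr13:28953700-28953949: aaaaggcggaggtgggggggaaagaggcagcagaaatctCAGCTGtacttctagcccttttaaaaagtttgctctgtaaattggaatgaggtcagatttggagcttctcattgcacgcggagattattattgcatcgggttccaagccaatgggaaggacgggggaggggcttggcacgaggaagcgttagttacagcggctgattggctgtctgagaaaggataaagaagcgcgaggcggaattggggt
Sox12, chr2:152398047-152398296: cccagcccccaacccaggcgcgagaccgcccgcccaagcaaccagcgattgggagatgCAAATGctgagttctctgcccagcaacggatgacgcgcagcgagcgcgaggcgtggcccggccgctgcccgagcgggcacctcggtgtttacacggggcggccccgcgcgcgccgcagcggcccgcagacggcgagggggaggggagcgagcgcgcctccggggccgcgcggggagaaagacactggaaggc

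The Sox11 window held 2 E-boxes and the other windows 1 each, against at least 1 in 66.22% of 32851 RefSeq promoters. CAGCTG was the E-box of the Sox4 window and 1 of those of Sox11, a sequence present in 13.0% of promoters. In the Sox12 window the E-box overlapped a match to the octamer ATGCAAAT, the letters bound by POU factors, which 1.6% of promoters held. GC content was 50.8% for Sox4, 58.0% for Sox11 and 74.4% for Sox12.

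The Sox11 promoter peak (chr12:27340553-27344297, over the start, the coding sequence and part of the UTR of this single-exon gene) held 515 and 429 scaled reads at 0 h (R1 and R2), then 344 and 297 (12 h), then 1176 and 682 (48 h). All 48 h values were above all 0 h values, and both 12 h values were below them. The log2 fold change was -0.56 ± 0.20 (SE) at 12 h vs 0 h, which did not pass the test. After 48 h it was 0.97 ± 0.20 vs 0 h and 1.53 ± 0.20 vs 12 h, and both passed. Throughout, the test is edgeR's quasi-likelihood test on the reads of all peaks with 2 libraries per time point, and a peak is called gained or lost when its Benjamini-Hochberg adjusted p is under 0.05. The 48 h libraries were far apart here, and the 48 h vs 0 h value was 0.53 without 48 h R1 and 1.32 without 48 h R2, called in both cases, whereas without 0 h R2 it was 0.85 and not called. A second peak within the gene (chr12:27338493-27340148, UTR) ran in parallel, from 132 and 82.8 scaled reads at 0 h to 91.1 and 75.4 at 12 h and 296 and 156 at 48 h; its gain at 48 h vs 0 h was no longer called without 48 h R1 or without 0 h R2.

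The Sox4 gene peak (chr13:28946436-28953746), which covered this whole single-exon gene and part of the non-coding gene Gm26735, held 796 and 577 scaled reads at 0 h, then 675 and 575 (12 h), then 1195 and 888 (48 h). It was thus highest in the 48 h libraries, while 12 h overlapped 0 h. Its log2 fold change was -0.14 ± 0.18 at 12 h vs 0 h, not called. After 48 h it was 0.60 ± 0.18 vs 0 h and 0.74 ± 0.18 vs 12 h, both called. The value vs 0 h was 0.37 without 48 h R1 and 0.39 without 0 h R2, and the call was lost without 0 h R2, without either 12 h library and with only the 4 libraries compared. The intergenic peak 5.0 kb upstream (chr13:28957718-28959695) had 164 and 132 scaled reads at 0 h, then 146 and 120 (12 h), then 325 and 181 (48 h). Its gain at 48 h vs 0 h was called in 5 of 12 alternative fits. That call was lost on leaving out any library except 48 h R2, with the lowest value, 0.29, without 48 h R1.

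The Sox12 promoter peak (chr2:152395179-152400222, over the start, coding sequence and UTR) held 1005 and 906 scaled reads at 0 h, then 838 and 821 (12 h), then 1128 and 852 (48 h), with overlapping groups at 0 h and 48 h. No contrast called it, and the log2 fold change was -0.20 ± 0.16 at 12 h and 0.05 ± 0.16 at 48 h vs 0 h. With the GC correction these turned to 0.18 and 0.27, still not called, and the 12 h value of the Sox11 promoter peak went from -0.56 to -0.22. Per kilobase the Sox12 peak was the highest of the 3 promoter peaks at 0 h, with 189 scaled reads per kb beside 126 for Sox11 and 93.9 for Sox4. At 48 h the mean level per kb was 248 for Sox11, 196 for Sox12 and 142 for Sox4. A level of H3K27ac in a mixed culture cannot tell fewer marked cells from less mark per cell.

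Away from the promoters, among peaks averaging 20 reads or more, the largest fold changes vs 0 h were at the pair of intergenic Sox11 peaks shown above. The peak 303.7 kb upstream had 0 and 2.12 scaled reads at 0 h, then 27.9 and 26.7 (12 h), then 42.2 and 48.2 (48 h). Its partner had 4.10 and 4.25, then 30.0 and 31.3, then 57.7 and 60.2. Replicates lay close together at each time point and no time point overlapped another at either peak. With no more than 3 reads in a 0 h library, the first was higher by at least 8.71-fold (12 h) and 14.4-fold (48 h), against a floor of 3 reads per library; the second had log2 fold changes of 2.84 ± 0.45 and 3.78 ± 0.42. Both were called gained at 12 h and at 48 h vs 0 h in all 12 alternative fits, which included leaving out each library in turn. The first of them is the peak whose values led to the choice of these genes.

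**Figure D1:**
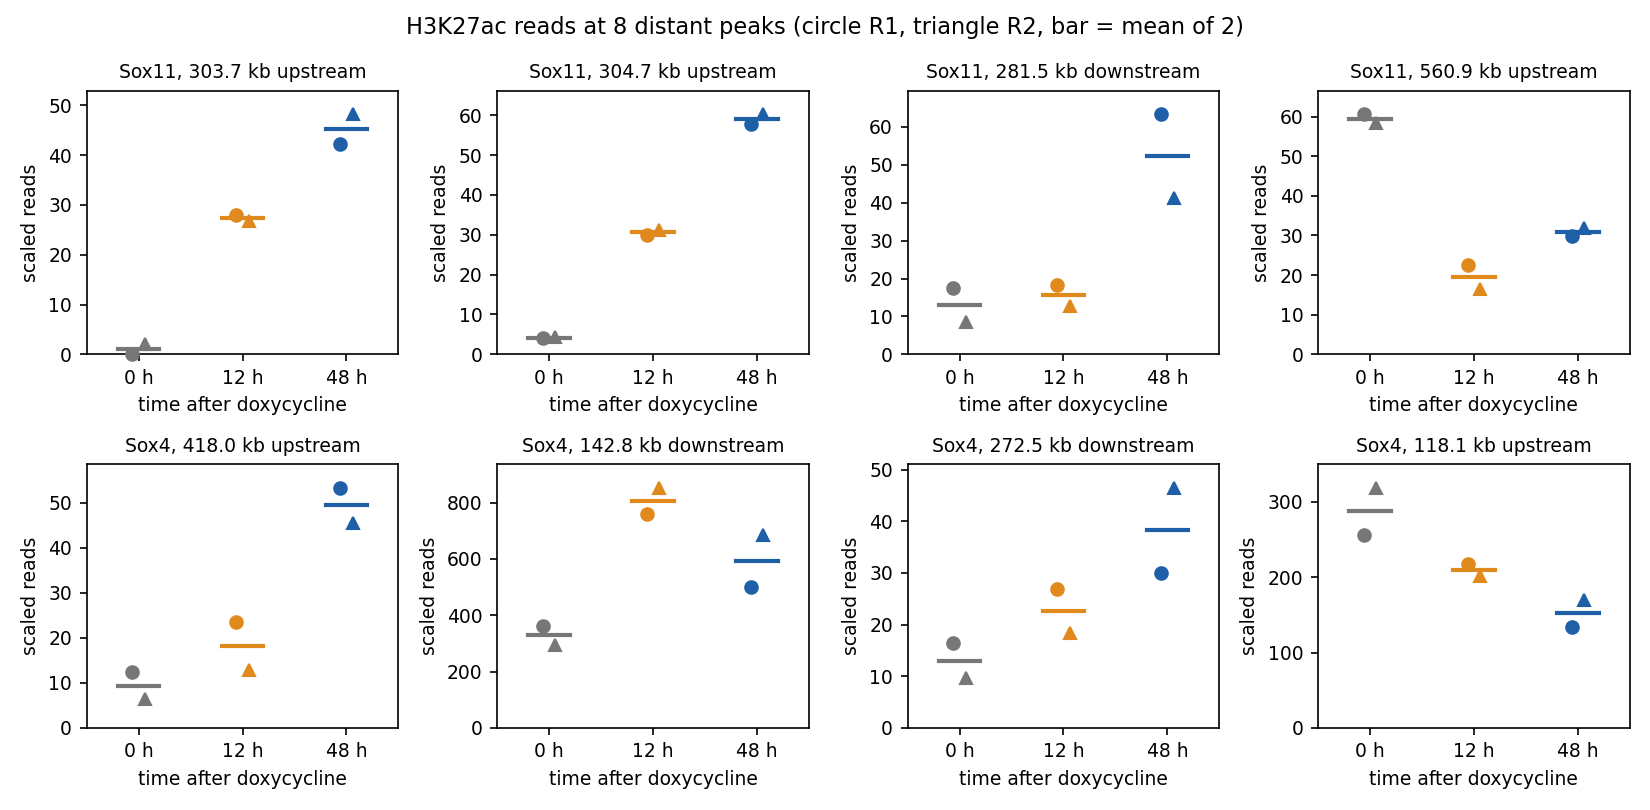
Scaled H3K27ac reads (y axis, linear from 0) at 0 h, 12 h and 48 h (x axis) for 8 distant peaks, with R1 as circles, R2 as triangles and the mean of the 2 as a bar. The pair of Sox11 peaks at 303.7 and 304.7 kb upstream starts at 0 to 4.25 reads and reaches 42.2 to 60.2, the Sox4 peak 142.8 kb downstream is highest at 12 h, and the peaks 560.9 kb upstream of Sox11 and 118.1 kb upstream of Sox4 fall from their 0 h values. The 48 h vs 12 h difference of the Sox4 peak at 142.8 kb was not called.

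At the other end of the Sox11 region, a pair of intergenic peaks 88 bp apart lay 406.0 and 405.4 kb downstream; they had fewer reads than the 20 set for naming and were singled out once their values were known. The first (chr12:26936349-26936897) had 1.03 and 0 scaled reads at 0 h, then 10.7 and 8.28 (12 h), then 38.9 and 12.9 (48 h), so that the 48 h libraries were far apart. Against the floor of 3 reads per library, its 48 h level was at least 8.26-fold higher. The second (chr12:26936986-26937405) had 2.05 and 0, then 3.22 and 3.68, then 24.4 and 7.74.

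Nearer the gene on this downstream side, 9 Sox11 peaks lay over the non-coding gene Gm9866 (chr12:27050950-27160633), and 6 of them were called gained at 48 h vs 0 h (8.56% of all peaks, 13.2% of all those over 100 kb from a TSS) and none at 12 h vs 0 h (9.93% and 20.2%). The strongest distant Sox11 peak, chr12:27080528-27084966 at 259.8 kb, went from 451 and 292 scaled reads at 0 h through 508 and 536 at 12 h to 823 and 685 at 48 h. Its 48 h values were above all others, and its log2 fold change at 48 h vs 0 h was 1.02 ± 0.19. The peaks at 281.5 and 280.4 kb were not called at 12 h vs 0 h, with log2 fold changes of 0.24 ± 0.46 and 0.03 ± 0.36. Their values at 48 h vs 0 h were 1.98 ± 0.39 and 1.55 ± 0.32. The peaks at 202.7 kb (chr12:27138372-27141300, over an exon of Gm9866) and 191.4 kb (chr12:27149982-27152297, intronic) had values of 1.04 ± 0.22 and 0.70 ± 0.21 at 48 h vs 0 h.

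Closer still, the intergenic Sox11 peak 21.1 kb downstream (chr12:27321180-27321790) had 14.4 and 11.7 scaled reads at 0 h, then 37.5 and 42.3 (12 h), then 21.1 and 42.1 (48 h). It was called gained at both times. The 48 h call held in 5 of 12 alternative fits. That call was lost on leaving out any library except 48 h R1, with the lowest value, 0.69, without 48 h R2. Upstream, the adjoining peaks at 78.1 and 79.3 kb were called gained only at 12 h vs 0 h, with log2 fold changes of 0.91 ± 0.30 and 0.99 ± 0.29 there and 0.16 ± 0.32 and 0.49 ± 0.30 at 48 h. These calls did not survive the GC correction, under which the 12 h values were 0.25 and 0.32. The farthest Sox11 peak, chr12:27941132-27941910 at 598.9 kb upstream, stayed between 30.4 and 49.3 scaled reads in all libraries and was not called.

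Sox4 had most of its distant peaks on the downstream side, and 26 of its 42 peaks lay over 2610307P16Rik (chr13:28460034-28885620), a non-coding gene on the same strand. Of these, 5 were called gained after 12 h and 13 after 48 h, both vs 0 h, and none was called lost in either; among all peaks over 100 kb from a TSS, the shares gained were 20.2% and 13.2%. The strongest, chr13:28808629-28813231 at 142.8 kb, had 363 and 293 scaled reads at 0 h, then 759 and 852 (12 h), then 499 and 686 (48 h). Here the 12 h libraries were the highest and did not overlap those of 48 h, and the log2 fold change was 1.30 ± 0.18 at 12 h and 0.85 ± 0.18 at 48 h vs 0 h. The 12 h call held in all 12 alternative fits. The value at 48 h vs 12 h was -0.44 ± 0.18 and was not called. With the GC correction it was -0.16, still not called, and the 12 h vs 0 h value was 0.91, still called. The adjoining peak at 140.0 kb had values of 1.43 ± 0.33 and 1.37 ± 0.33 at 12 h and 48 h vs 0 h.

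A few Sox4 peaks were like it in being high by 12 h. The peak at 172.5 kb (chr13:28779456-28782957) went from 257 and 219 scaled reads to 396 and 414 at 12 h and 330 and 428 at 48 h. That at 235.1 kb (chr13:28717728-28719544) had log2 fold changes of 0.86 ± 0.24 and 0.77 ± 0.24. The peak at 228.8 kb (chr13:28724621-28725275) was called only at 12 h vs 0 h, with 1.40 ± 0.46, and lost this call under the GC correction at 0.78.

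Other Sox4 peaks were not called at 12 h vs 0 h and were called gained at 48 h vs 0 h. The peak at 66.6 kb downstream (chr13:28886336-28887820), intergenic and just outside the start of 2610307P16Rik, had 41.0 and 44.6 scaled reads at 0 h, then 53.6 and 45.1 (12 h), then 103 and 131 (48 h); its log2 fold change of 1.45 ± 0.26 at 48 h vs 0 h was called in all 12 alternative fits. The peak over that start itself (68.5 kb) fell outside the rule for naming peaks, was chosen after its values were seen, and went from 112 and 72.2 to 90.1 and 80.03 and then to 234 and 156. The peaks at 170.3 and 109.8 kb had 48 h values of 1.42 ± 0.39 and 1.44 ± 0.29, the former 0.84 and not called without 0 h R2, 2.43 without 0 h R1, and not called with DESeq2, and that at 272.5 kb, whose sequence is shown above, 1.56 ± 0.39. The farthest Sox4 peak, 418.0 kb upstream in Cdkal1, had 12.3 and 6.37 scaled reads at 0 h, then 23.6 and 12.9 (12 h), then 53.3 and 45.6 (48 h), a log2 fold change of 2.38 ± 0.40 that was also called in all 12 alternative fits.

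**Figure D2:**
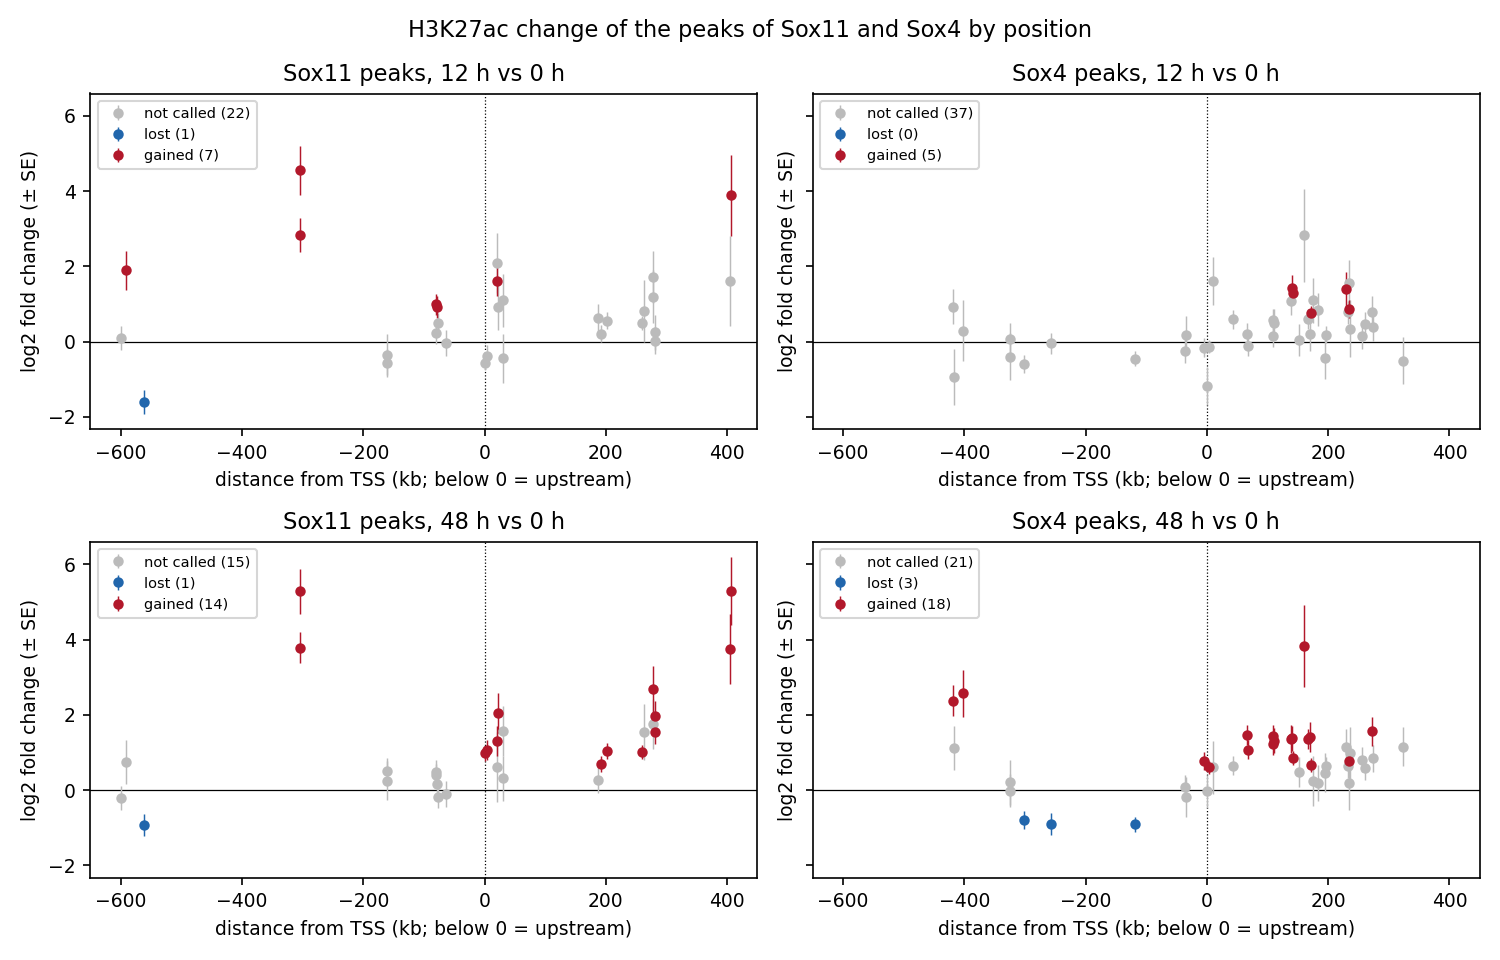
Log2 fold change (y axis, ± SE) of each Sox11 peak (left) and Sox4 peak (right) at 12 h vs 0 h (top) and 48 h vs 0 h (bottom) by distance from the TSS in kb (x axis, below 0 is upstream), coloured by call. At 48 h all called peaks downstream of either gene lie above 0, and the 4 called losses lie 118.1 to 560.9 kb upstream.

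Counted over all SoxC peaks, 12 were called gained and 1 lost at 12 h vs 0 h, where 9.93% and 6.03% of all peaks were. At 48 h vs 0 h, 32 were called gained and 4 lost, where 8.56% and 5.45% of all peaks were. At 48 h vs 12 h, 20 were called gained and 1 lost, where 10.7% and 8.43% of all peaks were. By gene, at 48 h vs 0 h 18 of 42 Sox4 peaks were gained and 3 lost, 14 of 30 Sox11 peaks gained and 1 lost, and none of the 7 Sox12 peaks was called. Both 48 h libraries were above both 0 h libraries in 50 of the 79 peaks, which 23.9% of all peaks did. The median log2 fold change of SoxC peaks was 0.29, 0.70 and 0.48 in the 3 contrasts in this order, beside -0.08, -0.04 and -0.03 over all peaks. Since gains here guided the choice of genes, nothing is read from these shares. A minimum of 10 reads in 2 libraries was met by 75 of the 79.

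These counts depended on single libraries. At 48 h vs 0 h, 2 of the 18 Sox4 gains and 3 of the 14 Sox11 gains were called in all 12 alternative fits. The gains 172.5 and 235.1 kb downstream of Sox4 and 191.4 kb downstream of Sox11 were called then in 7 of 12. Without 0 h R2 the gains at 48 h vs 0 h numbered 5, and without 0 h R1 22, while the same fits called 1642 and 3270 of all peaks gained in place of 5723. Without 12 h R2 the gains at 48 h vs 12 h numbered 1 in place of 20, and without 12 h R1 8, while 680 and 1278 of all peaks were called gained in place of 7162. Gains at 12 h vs 0 h numbered 4 to 6 on leaving out any 0 h or 12 h library. Without either 48 h library the number of gains at 48 h vs 0 h stayed at 32, and gains at 12 h vs 0 h numbered 22. Of 36 calls at named peaks, 8 were kept without 0 h R2, 20 to 23 without any 1 of 0 h R1, 12 h R1 and 12 h R2, and 33 and 35 without 48 h R1 and R2.

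**Figure D3:**
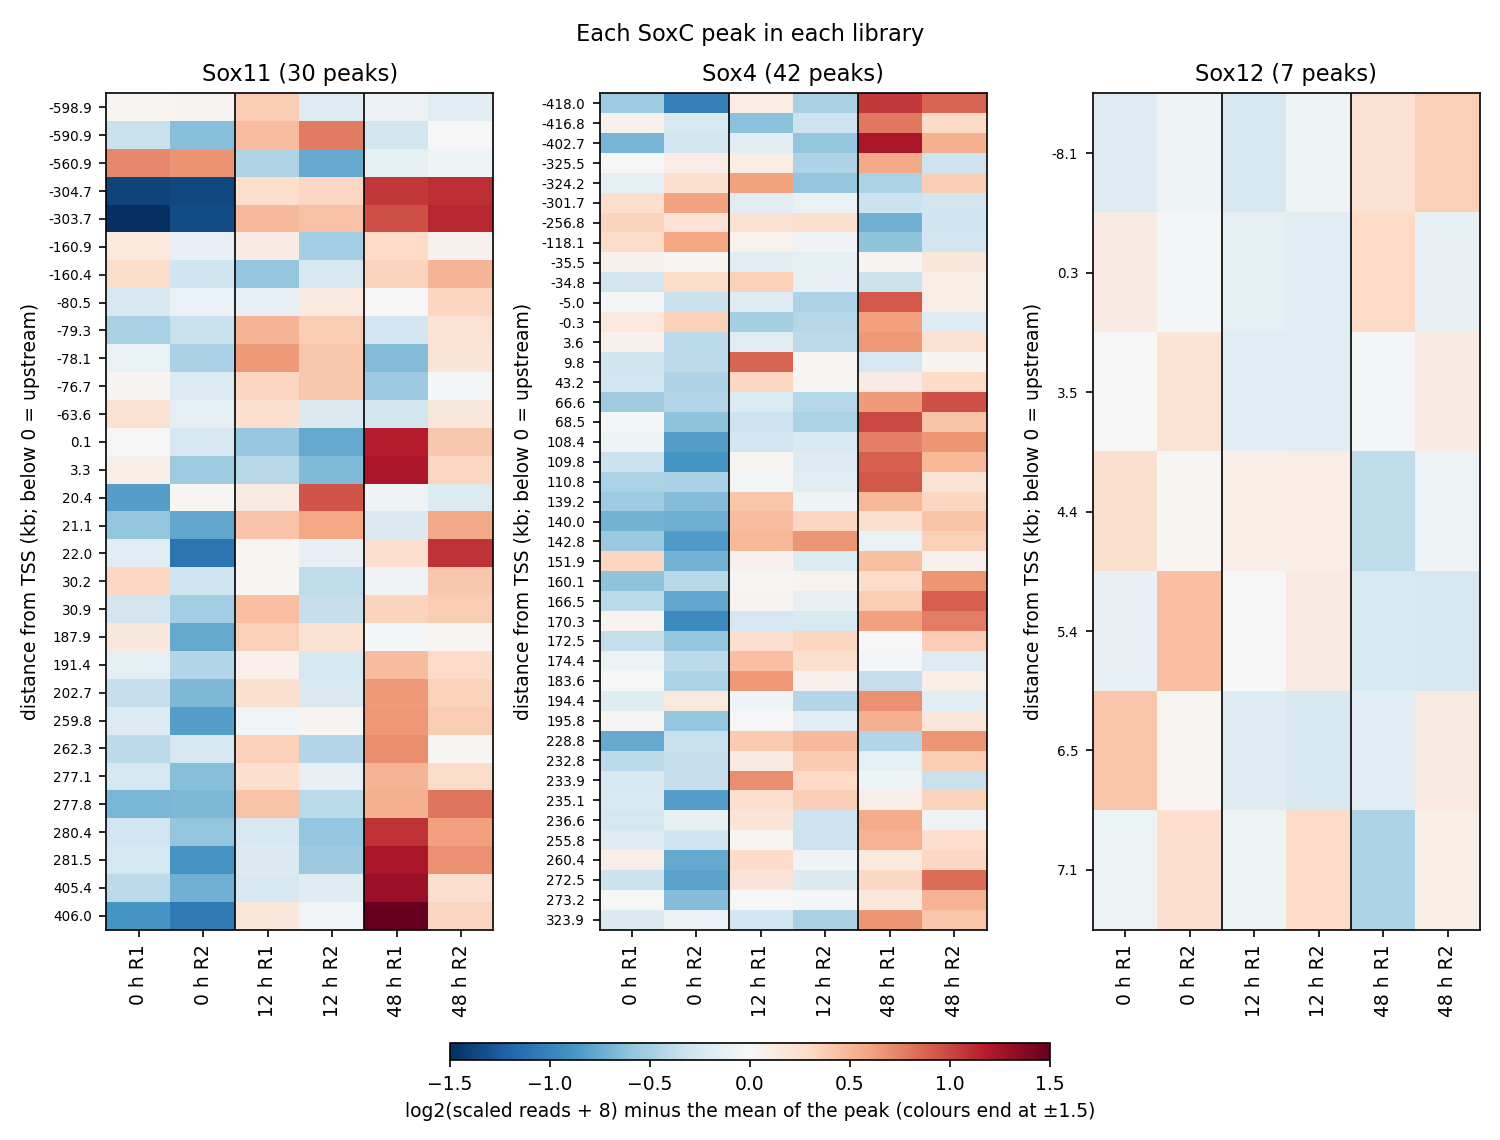
Each of the 79 SoxC peaks (rows, ordered by distance from the TSS in kb, upstream first) in each of the 6 libraries (columns); colour gives log2 of scaled reads plus 8, minus the mean of the peak. Most Sox11 and Sox4 rows turn from blue at 0 h to red at 48 h, the rows at 303.7 and 304.7 kb upstream of Sox11 most clearly, and the 7 Sox12 rows stay pale.

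Split by side, all 29 Sox4 peaks downstream of the gene and all 17 of Sox11 had a positive log2 fold change at 48 h vs 0 h, with 14 and 11 of them called gained and none lost. Upstream, 3 Sox4 peaks were called gained and 3 lost out of 11, and 2 Sox11 peaks were called gained and 1 lost out of 12. In this contrast 31538 of all 66841 peaks had a positive value, and 8.56% were called gained and 5.45% lost. Of all 9741 peaks over 100 kb from a TSS, 4437 had a positive value and 926 were called lost. Of the 51 SoxC peaks over 100 kb from their TSS, all of them of Sox4 or Sox11, 24 were called gained after 48 h and 9 after 12 h, both vs 0 h, beside 13.2% and 20.2% of all 9741 such distant peaks. The difference between the sides was not tested.

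The 4 called losses are described as closely as the gains because 3 of them lay in repeats. The Sox11 peak 560.9 kb upstream (chr12:27903092-27903809), intergenic, had 60.5 and 58.4 scaled reads at 0 h, then 22.5 and 16.6 (12 h), then 30.0 and 31.8 (48 h). It was the only SoxC peak called lost at 12 h, with a log2 fold change of -1.61 ± 0.32, and -0.94 ± 0.30 at 48 h. The strongest of the losses, the Sox4 peak 118.1 kb upstream (chr13:29070511-29073137, intergenic), went from 257 and 318 scaled reads at 0 h to 218 and 201 at 12 h and 134 and 170 at 48 h, a log2 fold change of -0.91 ± 0.20 at 48 h. The Sox4 peaks at 256.8 and 301.7 kb upstream, in introns of Cdkal1, had values of -0.89 ± 0.29 and -0.80 ± 0.24. The call at 256.8 kb held in 4 of 12 alternative fits and that at 301.7 kb in 6, as did the 48 h call of the Sox11 peak, while that at 118.1 kb held in 11.

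Repeat-masked letters of the reference made up 100.0% of the lost Sox11 peak, 98.97% of the Sox4 peak at 118.1 kb and 88.61% of that at 301.7 kb, but 11.07% of that at 256.8 kb. None of the 32 peaks gained at 48 h was masked over 43.75% of its bases. Over all peaks, 10.87% were masked over at least 80% of their length, as were 37.49% of those called lost at 48 h vs 0 h and 0.72% of those called gained. The run of peaks 63.6 to 80.5 kb upstream of Sox11, including those called gained at 12 h, was masked over 94.65% to 100.0% of each peak. Without the 8 SoxC peaks masked over at least 80%, a choice made after these values were seen, 32 gains and 1 loss were left at 48 h vs 0 h and 10 gains and no loss at 12 h vs 0 h.

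The lost Sox4 peaks at 118.1 and 301.7 kb shared 1 identical run of 196 bases, at chr13:29071323-29071518 and chr13:29255542-29255737. Reads inside such a run match both peaks equally well, and how they were placed was not tested.
Run shared by both lost Sox4 peaks, plus strand: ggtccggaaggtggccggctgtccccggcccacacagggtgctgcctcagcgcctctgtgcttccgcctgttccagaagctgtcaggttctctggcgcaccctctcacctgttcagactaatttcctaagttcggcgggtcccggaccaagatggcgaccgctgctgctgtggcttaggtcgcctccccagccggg

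The run as a whole did not recur in the lost Sox11 peak, whose longest shared run with either of these Sox4 peaks was 18 bases. Those 18 letters also lie within the run printed above and in the Sox11 window below. The Sox11 sequence is shown for its high GC content of 67.2% in this window, with the single E-box in capitals.
Sox11, 560.9 kb upstream, chr12:27903326-27903575: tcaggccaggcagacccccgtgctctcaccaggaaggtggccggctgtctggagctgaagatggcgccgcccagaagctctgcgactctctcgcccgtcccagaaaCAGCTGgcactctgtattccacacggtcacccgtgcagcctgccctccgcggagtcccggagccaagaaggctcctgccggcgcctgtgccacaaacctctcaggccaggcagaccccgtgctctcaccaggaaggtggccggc

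**Figure D4:**
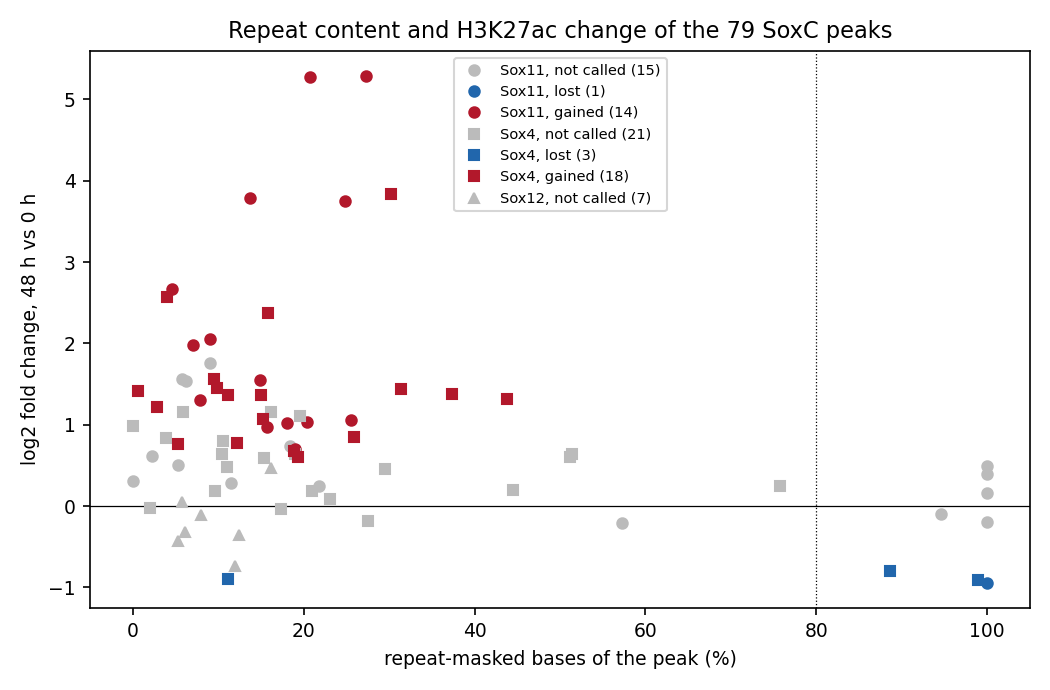
Repeat-masked bases of each SoxC peak in percent (x axis) and log2 fold change at 48 h vs 0 h (y axis), coloured by call, with circles for Sox11, squares for Sox4 and triangles for Sox12; the dotted line marks 80%. Of the 8 peaks to its right 3 are called lost and none gained at 48 h, and all gained peaks lie at 43.75% or less.

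Reads summed over all peaks of a gene give 1 value per gene and library. Sox11 summed to 1916 and 1456 scaled reads at 0 h, then 2069 and 1852 (12 h), then 3590 and 2794 (48 h), so that 48 h stood above the rest while 12 h overlapped 0 h. Its log2 fold change vs 0 h was 0.22 ± 0.16 after 12 h, not called, and 0.92 ± 0.16 after 48 h, called, and from 12 h to 48 h it was 0.70 ± 0.15, also called. Sox4 summed to 3103 and 2558, then 3729 and 3496, then 4467 and 4296, with no overlap between time points, and values of 0.35 ± 0.12, 0.63 ± 0.12 and 0.28 ± 0.12, of which the first 2 were called. Sox12 summed to 1181 and 1094, then 996 and 999.9, then 1290 and 1050, with values of -0.19 ± 0.12, 0.04 ± 0.12 and 0.23 ± 0.12, none called. Over all 15849 genes with a peak, 9.95% were called gained and 20.4% lost at 12 h vs 0 h. For 48 h vs 0 h these shares were 7.48% and 7.88%, and for 48 h vs 12 h 26.5% and 10.7%.

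The sums at 12 h depended on the scaling. Under library totals the median gene had a log2 fold change of -0.24 at 12 h vs 0 h, and TMM factors moved this median up by 0.20 and turned the split of calls from 1577 gained and 3227 lost to 2146 gained and 831 lost. Relative to the median gene, Sox4 was higher at 12 h vs 0 h by 0.60 under either scaling, Sox11 by 0.46 and Sox12 by 0.06, but with the GC correction by 0.38, 0.31 and 0.25. The sign of the Sox12 value thus turned from -0.19 to 0.01 with TMM factors.

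The zones around each gene took different parts in these sums. At 12 h vs 0 h the median log2 change was -0.33 over all 16416 promoter peaks of the series. Over all peaks more than 100 kb from a TSS it was 0.29. The part of this series-wide trend in the zones below was not tested. At Sox11 the promoter peak fell from 26.9% and 29.4% of the summed reads at 0 h to 16.6% and 16.05% at 12 h and stood at 32.8% and 24.4% at 48 h, whereas peaks over 100 kb downstream held 44.3% and 40.3%, then 51.0% and 50.8%, then 46.1% and 47.8%. At Sox4 the 25 peaks over 100 kb downstream went from 1379 and 1030 scaled reads at 0 h to 2143 and 2154 at 12 h and 2078 and 2370 at 48 h, so that the mean was 1.78-fold and 1.85-fold that of 0 h. The 8 Sox4 peaks over 100 kb upstream went the other way, from 477 and 569 to 436 and 378 and then to 363 and 390. When only peaks within 100 kb were summed, the 12 h vs 0 h value was -0.06 for Sox4 and -0.05 for Sox11. For Sox12, with no peak beyond 8.1 kb, the promoter peak alone held 81.2% to 87.4% of the reads.

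**Figure D5:**
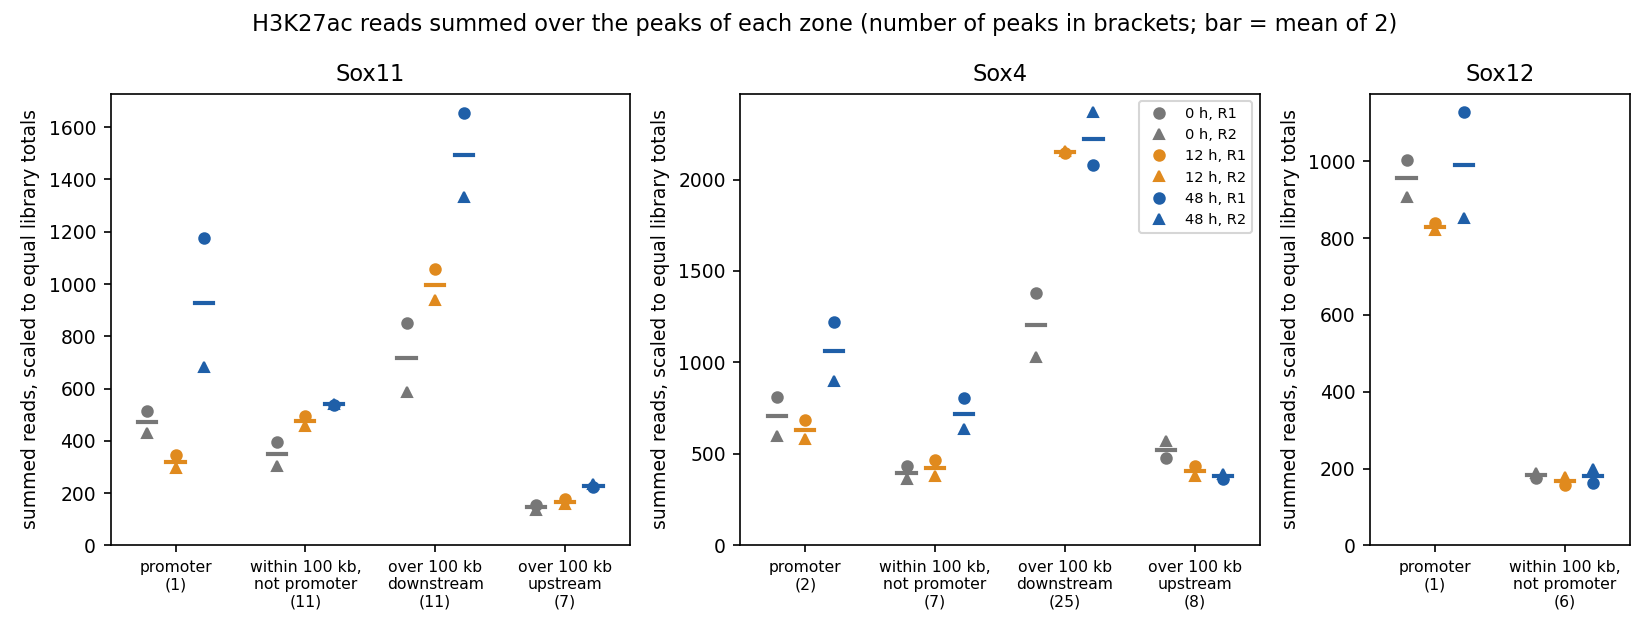
Scaled reads summed over the peaks of each zone (y axis, linear from 0) for Sox11, Sox4 and Sox12, with R1 as circles, R2 as triangles, the mean of the 2 as a bar, and time points by colour; brackets give the number of peaks. At 12 h the promoters of Sox11 and Sox12 lie below both 0 h values while the peaks over 100 kb downstream of Sox11 and Sox4 lie above them, and Sox12 has no distant zone. All promoter peaks of the series had a median log2 change of -0.33 at 12 h vs 0 h, and all peaks over 100 kb from a TSS 0.29.

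The 6 other Sox12 peaks lay within 8.1 kb of the TSS and summed to 177 and 188 scaled reads at 0 h, then 158 and 178 (12 h), then 162 and 198 (48 h). Those 7.1 and 6.5 kb downstream (chr2:152390726-152391221 and chr2:152391419-152391709) and 4.4 kb downstream (chr2:152393205-152394007, over UTR) stayed between 10.1 and 47.2 scaled reads in all libraries. The upstream peak at 8.1 kb (chr2:152405451-152406800) had 65.7 and 72.2 at 0 h, then 62.2 and 71.8 (12 h), then 89.9 and 99.7 (48 h), a log2 fold change of 0.46 ± 0.25 at 48 h vs 0 h that was not called. Those 5.4 and 3.5 kb downstream, with too few reads to be named by the rule, stayed between 6.43 and 19.1. The next peak beyond the upstream one, 13329 bp from the Sox12 TSS but nearer to that of its neighbour Zcchc3, had 376 and 313 scaled reads at 0 h and 502 and 496 at 48 h and was called gained. Beyond the edges of the other genes the first peaks outside were not called at 48 h vs 0 h, at 478030 and 684352 bp from Sox4 and at 873094 and 819026 bp from Sox11.

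Over the 6 libraries the summed signals of Sox4 and Sox11 had a Pearson's r of 0.93 (log2 of scaled reads plus 8), beside 0.50 for Sox11 and Sox12 and 0.16 for Sox4 and Sox12, as a description over 3 time points of 2 libraries. Among 3618 genes with at least 20 reads on average and a range of at least 1 on this scale, the most like Sox11 were Wdr17, Rnf122, Olfml3, Sstr2 and Commd9, with r of 0.99 each. For Sox4 they were Tyrobp, Spaar, Serping1, Eya2 and 4930470P17Rik, and for Sox12 they included Ms4a4d, Ankrd34a, Rnf166 and Camk2n2, with r from 0.99 to 1.00. These are the highest of many values of r over only 6 libraries. With 1 in place of 8 added to the scaled reads, Gm4791 and Abcc3 replaced Wdr17 and Olfml3 among those most like Sox11. Stbd1 likewise replaced Camk2n2 for Sox12, and the Sox4 genes stayed the same. The gene most like Sox12, Ms4a4d, had 84.4 and 28.4 scaled reads in 48 h R1 and R2.

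Other Sox genes are given from a list of 16 by group, of which Sox7 and Sox10 had no peak. Of the 14 others, 1 was called gained and none lost at 12 h vs 0 h, beside 9.95% and 20.4% of all genes with a peak. At 48 h vs 0 h, 1 was called gained and 3 lost, beside 7.48% and 7.88%. The SoxB1 gene Sox2, which maintains pluripotent and neural progenitor cells, had the most reads, 7153 and 7407 scaled reads at 0 h, then 8964 and 8576 (12 h), then 5266 and 6133 (48 h). Its fall from 12 h to 48 h passed the test (log2 fold change -0.62 ± 0.11, edgeR adjusted p = 0.0044), and that from 0 h to 48 h did not (-0.35 ± 0.11, edgeR adjusted p = 0.056). Sox3, also of SoxB1, rose at 48 h vs 0 h from 36.9 and 30.8 to 110 and 52.5 (1.24 ± 0.37, edgeR adjusted p = 0.040).

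Sox5, a SoxD gene, was higher in the 12 h libraries than in all others, at 482 and 560 scaled reads beside 277 and 246 at 0 h and 251 and 374 at 48 h. It rose at 12 h vs 0 h (1.00 ± 0.18, edgeR adjusted p = 0.0047) and fell from 12 h to 48 h (-0.73 ± 0.18, edgeR adjusted p = 0.012). The 3 genes that fell at 48 h vs 0 h were Sox14 of SoxB2, the endoderm gene Sox17 of SoxF and Sox15 of SoxG, with log2 fold changes of -0.89 ± 0.22, -0.59 ± 0.16 and -0.51 ± 0.14. Sox8 of SoxE was called gained at 48 h vs 12 h only. Sox1, Sox6, Sox9, Sox13, Sox18, Sox21 and Sox30 were not called in any contrast.

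Of the genes known to work with SoxC proteins, the POU factor Pou3f2 (Brn2) rose at 48 h vs 0 h, from 597 and 684 to 938 and 817 scaled reads (0.45 ± 0.12, edgeR adjusted p = 0.028). Pou3f3 was called lost at 48 h vs 12 h (-0.55 ± 0.18). Of 4 genes known as SoxC targets, Tubb3, which encodes neuronal beta-tubulin, had 201 and 210 scaled reads at 0 h, then 203 and 186 (12 h), then 486 and 355 (48 h) (1.03 ± 0.17 at 48 h vs 0 h, edgeR adjusted p = 0.0023). Map2, a microtubule-associated protein of dendrites, rose at both times, from 108 and 86.0 to 152 and 186 and then 284 and 323 (0.80 ± 0.19 and 1.65 ± 0.19). Tead2 was called gained at 48 h vs 12 h only, and Dcx, with a single peak of 31.0 to 76.4 scaled reads, was not called.

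The neighbouring protein-coding genes of the annotation were Gm11361 and Cdkal1 for Sox4, Cmpk2 and Dcdc2c for Sox11, and Nrsn2 and Zcchc3 for Sox12. Cdkal1, whose introns also hold 7 of the Sox4 peaks, rose at 12 h and 48 h vs 0 h (0.53 ± 0.14 and 0.56 ± 0.14, edgeR adjusted p = 0.020 each). Nrsn2 fell at 48 h vs 0 h (-0.72 ± 0.20, edgeR adjusted p = 0.030) and Dcdc2c at 12 h vs 0 h (-0.89 ± 0.27, edgeR adjusted p = 0.032). Gm11361 and Cmpk2 were not called in any contrast, and Zcchc3 was called gained at 48 h vs 12 h only.

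Sequence features of SoxC peaks were close to those of the whole set. In the 500 bp around the centre, 70 of 79 (88.6%) held an E-box, beside 89.2% of all peaks. CAGATG was found in 22 (27.8%, beside 29.3%) and CAGCTG in 23 (29.1%, beside 25.2%), both on both strands and both counted among the E-boxes. Of the HMG-box motifs, ACAAAG was found in 28 (35.4%, beside 34.3%) and AACAAT in 17 (21.5%, beside 17.9%), and the octamer ATGCAAAT in 1 (1.27%, beside 2.25%). Among the 32 SoxC peaks gained at 48 h, 12 (37.5%) held CAGATG and 14 (43.8%) ACAAAG, beside 42.3% and 42.6% of all 5722 peaks gained then on chromosomes with an annotated TSS. The other motifs searched were less frequent in these SoxC peaks than in all gained peaks. Any E-box was held by 27 (84.4%, beside 93.4%) and CAGCTG by 8 (25.0%, beside 31.3%). AACAAT was held by 6 (18.75%, beside 24.3%) and ATGCAAAT by 0 (beside 4.18%). Of the 47 SoxC peaks not gained, 43 (91.5%) held an E-box. These differences were not tested. Median GC content was 47.6% for SoxC peaks and 50.2% for all peaks, and median width was 704 bp and 676 bp. Median distance to the TSS was 166.5 kb for SoxC peaks and 14.3 kb for all. A match of letters says nothing about binding.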

How the data were processed

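H3K27ac ChIP-seq of 6 libraries was analysed; the Input library was not used here. According to the study's methods and the labels, the authors checked reads with FastQC, aligned them to mm10 with Bowtie2 in local mode, sorted and converted the alignments with SAMtools (version 0.1.19), used MACS2 with the Input as control for peak calling, joined overlapping peaks and deposited raw read counts per merged peak, made with QuasR. How reads matching several places were handled is not given in the sources used here.

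Each peak was given to the nearest protein-coding TSS (GENCODE M21). Differences were tested with edgeR 4.0.16 (R 4.3.3), quasi-likelihood, on the counts of all 66841 peaks, all 6 libraries in 1 model with library totals as sizes, and again on reads summed per gene; the Benjamini-Hochberg threshold was 0.05. The tests were tried on simulated data for 48 h vs 0 h, with 200 changed peaks averaging 20 reads or more. The changes were 2-fold and 4-fold in equal numbers. Of these, 132 were recovered, 38 of them 2-fold and 94 4-fold, and 6 unchanged peaks were called. Most of the 2-fold changes were thus missed. Library totals of 6283103 to 8112895 reads limit precision at weak peaks. The SE values come from the edgeR fit and include the estimated spread between libraries. Each fold given as at least a value divides the observed mean by a fixed floor of 3 reads per 0 h library. It includes no error of the 12 h or 48 h mean. Alternatives were TMM factors, DESeq2 1.42.0, a filter of 10 reads in 2 libraries, a replicate block, a GC offset, only the 4 libraries compared, peaks within 100 kb, each library left out, and, added after seeing the data, omission of repeat-masked peaks. Repeat masking is that of the lower-case letters of the RefSeq genome GRCm38.p6.

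The genes, gene lists and tests were chosen with earlier results of these data known. Named per gene were the promoter peak (within 2 kb) with most reads, the 5 strongest peaks, among called peaks of at least 20 reads the 5 largest and 3 smallest log2 fold changes at 48 h and 12 h vs 0 h, and the farthest peak. The contrasts with 0 h share their control libraries. For Sox12, 1 of the genes most like it is not reported here.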

Additional observations from a re-analysis of the deposited data

Results flagged for a closer look

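The contrast of 48 h vs 12 h is the direct test of whether the change from 0 h differed between the induction times, since both start from the same 0 h libraries. By this test (edgeR, adjusted p under 0.05) 20 SoxC peaks had a higher change at 48 h than at 12 h and 1, the Sox4 peak 256.8 kb upstream in Cdkal1, had a lower one, beside 10.7% and 8.43% of all peaks. That 1 loss was kept in 5 of 12 alternative fits; the number of losses was 0 with DESeq2, with only the 4 libraries compared and on leaving out any 1 library other than 48 h R2, and 8 without 48 h R2. The summed signal of Sox11 changed by 0.70 (log2) more at 48 h than at 12 h; the sums of Sox4 and Sox12 did not pass this test. Without 12 h R2 the first count was 1, as given above.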

How the results depend on the processing

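Leaving out 1 library at a time gave 4 to 22 SoxC peaks gained and 0 to 5 lost at 12 h vs 0 h (12 and 1 with all libraries), 5 to 32 gained and 0 to 4 lost at 48 h vs 0 h (32 and 4), and 1 to 27 gained and 0 to 8 lost at 48 h vs 12 h (20 and 1). A time point left with 1 library is assumed to vary like the others. The same omissions gave summed log2 fold changes, in the order of these contrasts, of 0.22 to 0.50, 0.50 to 0.78 and 0.23 to 0.33 for Sox4, of 0.033 to 0.43, 0.73 to 1.13 and 0.51 to 0.87 for Sox11, and of -0.24 to -0.13, -0.12 to 0.18 and 0.073 to 0.37 for Sox12. The Sox12 value at 48 h vs 0 h turned negative without 0 h R2 (-0.015) and without 48 h R1 (-0.12). The calls of the Sox4 and Sox11 sums at 48 h vs 0 h were lost without 0 h R2, that of Sox11 at 48 h vs 12 h without either 12 h library, and that of Sox4 at 12 h vs 0 h without any 1 of the 0 h and 12 h libraries. Other calls appeared on leaving out 48 h libraries. The Sox4 sum at 48 h vs 12 h became called without 48 h R1 (0.25) and without 48 h R2 (0.31). The Sox12 sum became called there without 48 h R2 (0.37). At 12 h vs 0 h the Sox11 (0.22) and Sox12 (-0.19) sums became called without either 48 h library.

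DESeq2 called 7 peaks gained at 12 h vs 0 h, 1 lost at 48 h vs 0 h, and between 12 h and 48 h 10 gained and 0 lost. With only the 4 libraries compared in each fit, 21 peaks were gained and 5 lost at 12 h vs 0 h, 1 was lost at 48 h vs 0 h, 0 were lost between 12 h and 48 h, and the sums of Sox11 (0.22) and Sox12 (-0.19) were called at 12 h vs 0 h. Peaks within 100 kb made up 3, 8 and 6 of the gains in the 3 contrasts and 0 of the losses, and their sums alone gave -0.064 for Sox4 and -0.047 for Sox11 at 12 h vs 0 h, and a called 0.75 for Sox4 at 48 h vs 12 h. With the GC correction, 2 peaks were lost at 48 h vs 12 h and the Sox4 sum was called there at 0.38. The Sox12 sum at 12 h vs 0 h was 0.0092 with TMM factors, 0.029 with DESeq2 and 0.14 with the GC correction. Without repeat-masked peaks, 0 losses after 12 h and 1 after 48 h, both vs 0 h, were left. Where no cause is plain from how a fit was built, the cause was not tested.

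The labels do not say whether equal replicate numbers pair the libraries across time points. Deviations of R1 from the time-point mean correlated between time points at -0.036, -0.050 and 0.078. These values cannot decide the question, since counting error at weak peaks and trends of single libraries enter them. A replicate block gave, in the order of the contrasts above, 13 gained and 2 lost, 33 gained and 4 lost, and 20 gained and 1 lost. Of the 36 calls at named peaks, all were kept with the block and with the filter, 35 with TMM factors, 33 with the GC correction, 27 with only the libraries compared and 25 with DESeq2, and none changed sign. Over all peaks, calls at 12 h vs 0 h went from 6638 gained and 4028 lost to 7572 and 2637 with TMM factors and 4089 and 1110 with DESeq2, those at 48 h vs 0 h from 5723 and 3642 to 6476 and 2705 and to 3582 and 976. Over gene sums, calls at 48 h vs 12 h went from 4202 gained and 1696 lost to 2163 and 2581 with TMM factors and 1191 and 2275 with DESeq2. Peaks with few reads at 0 h limit their fold changes.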
